A study of Mus musculus with 10 samples.

Results

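The comparison set out the second day of a chemical reprogramming course against the first. Mouse embryonic fibroblasts were cultured in XEN reprogramming medium with the cocktail C6FAE, which aims at cells like extraembryonic endoderm (XEN), and single cells were picked by hand after digestion on successive days of the course. Cells with the name prefix d1 (1 day of induction) were set against cells with the prefix d2 (2 days), and each cell needed at least 4000 detected genes. All 40 d1 cells and 83 of 88 d2 cells passed, which is 123 of the 670 cells kept and of the 808 cells in the table. Both groups carried the same cocktail of CHIR99021 (a GSK3 inhibitor), RepSox (an inhibitor of the TGF-beta receptor ALK5), Forskolin (which raises cAMP), AM580 (a retinoic acid receptor agonist) and EPZ004777 (a DOT1L inhibitor), and the labels name C6FAE for all 10 batches. The fibroblasts are a mixed primary culture from the trunks of ICR mouse embryos, and the cell names do not say which of the 10 batches, wells or embryos a cell came from. Each day was therefore 1 sample, without a replicate, and no test between the days was made. A level below is the mean over cells of log2(CPM + 1), with CPM as the unique molecules (UMIs) of a gene scaled to the same total in each cell, without the ERCC spike-ins, and a difference is the level at d2 minus the level at d1. A gene was called higher or lower when this difference was at least 1 in size, and the SD given with a level is the spread over cells.

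The cocktail acts on several pathways at once. Inhibition of GSK3 stabilises beta-catenin, which with TCF factors turns on Wnt target genes, and cAMP acts through protein kinase A on the factor CREB. Retinoic acid receptors with a bound ligand induce a set of enzymes and carriers that handle retinoids. ALK5 passes on TGF-beta signals, but not BMP signals. BMP ligands act through other receptors on Smad1 and its relatives, and *Bmp2* is one of the genes followed in the study. Genes of cholesterol synthesis are switched together by the factor SREBP2 (gene *Srebf2*) when sterols are low in the membrane of the endoplasmic reticulum.

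Depth was high in both days. The median cell held 749200 UMIs and 7765 genes at d1 and 1055257 UMIs and 8643 genes at d2, with 56523 to 2879868 UMIs per cell at d1 and 38136 to 4871857 at d2. The d2 cells fell into 2 stretches of running numbers that differed from each other, a break that was found after the values were seen. The 38 kept cells numbered 1 to 40 had a median of 663036 UMIs and 8007 genes, and the 45 kept cells numbered 41 to 88 had 1253115 UMIs and 9201 genes. Molecules of *Xist* at 20 CPM or more were found in 11 of 40 d1 cells, in 12 of 38 d2 cells numbered 1 to 40 and in 32 of 45 numbered 41 to 88, and 4 Y-linked genes together reached 20 CPM in 20, 19 and 7 cells, with no cell reaching it for both. Cells with *Xist* were thus more frequent in the later numbers, and what the stretches stand for was not given in the sources used here. Differences from d1 are given below for all d2 cells and, where they part, for each stretch. All 12 fibroblast markers were detected at both days, with a summed level of 1467 to 7664 CPM at d1 and 1542 to 15366 CPM at d2. Of the defining markers of other cell types, *Pecam1*, *Emcn* and *Vwf* of endothelium, *Ptprc* of leukocytes and *Cdh1* of epithelium were at 0 in every cell of both days. Other members of the lists were detected. The summed endothelial, leukocyte and glial markers reached at most 31.2, 102 and 79.7 CPM at d1 and 73.5, 218 and 287 CPM at d2. The summed muscle markers reached at most 154 CPM at d1, and at d2 they reached 20117 CPM in 1 cell and at most 97.4 CPM in the others, and the summed epithelial markers reached 4882 CPM in 1 other d2 cell, 4692 of it *Krt19*. The next d2 cell held 2180 CPM of epithelial markers and the highest d1 cell 1060 CPM, and these cells were kept throughout. Without the d2 cell highest in each of the 2 lists, 635 genes were higher and 182 lower.

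Of 9753 genes with a level of at least 1 at either day, 617 (6.33%) were higher at d2 by at least 1 and 186 (1.91%) were lower, and the median difference over all of them was 0.13. Of the calls, 76.8% were upward. After every cell was thinned to 50000 UMIs, which 40 d1 and 82 d2 cells could give, 641 genes (6.57%) were higher and 336 (3.45%) lower, and 65.6% of the calls were upward. Against d1, the d2 cells numbered 1 to 40 had 642 genes higher (6.58%) and 289 lower (2.96%), and numbers 41 to 88 had 991 higher (10.2%) and 257 lower (2.64%). In both stretches 308 genes (3.16%) were higher and 101 (1.04%) were lower, and 6 genes (0.0615%) were called in opposite directions. Set against each other, the cells numbered 1 to 40 were higher than those numbered 41 to 88 in 228 genes (2.34%) and lower in 524 (5.37%). The stretches were set against the same d1 cells, so the counts in both are not 2 independent comparisons. In each stretch the upward side was the larger one. The counts of list members below stand beside these shares of all genes tested, 6.33% higher and 1.91% lower over all d2 cells. Counts within a stretch stand beside 6.58% higher and 2.96% lower in numbers 1 to 40, and 10.2% and 2.64% in numbers 41 to 88.

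**Figure D1:**
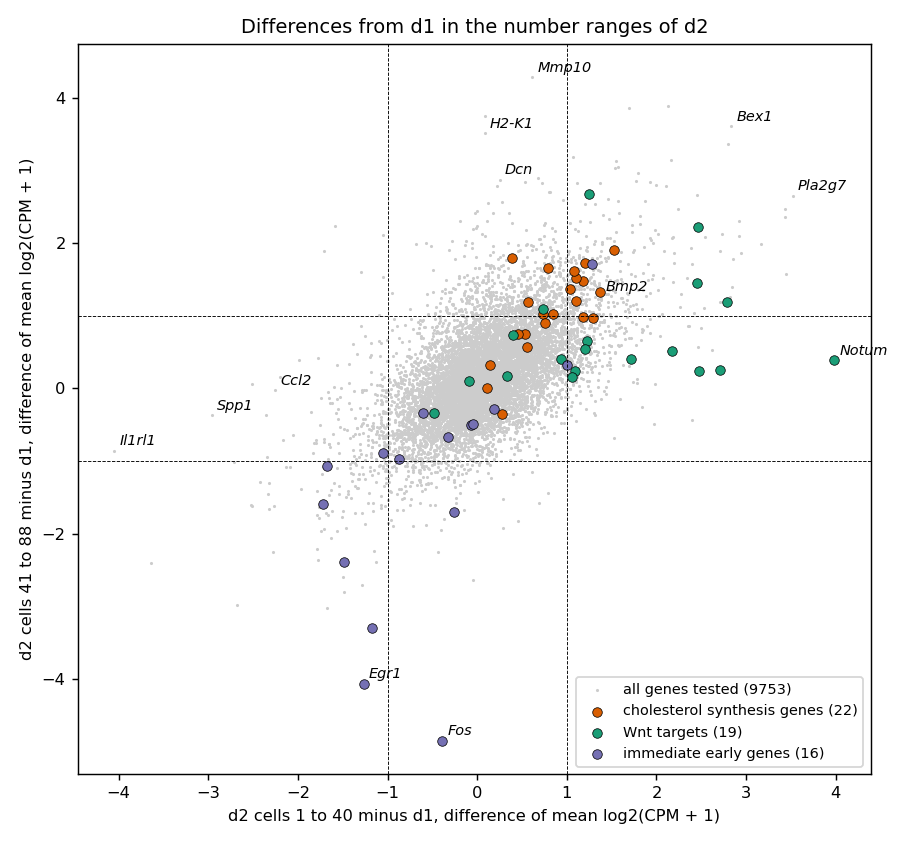
Each point is 1 of 9753 genes, with the difference from d1 (log2 scale) in d2 cells numbered 1 to 40 on the x axis and in numbers 41 to 88 on the y axis; dashed lines mark a difference of 1 in size. Cholesterol synthesis genes lie above 0 on both axes with 1 exception, Wnt targets spread to the right, and *Fos* and *Egr1* lie far below 0 on the y axis.

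Genes of cholesterol synthesis were higher at d2. Of 22 members tested, 12 were higher at d2, none was lower, 21 had a difference above 0, and the median difference was 1.10. The median was 0.82 in the cells numbered 1 to 40, 1.11 in numbers 41 to 88 and 1.08 after thinning, against 0.07, 0.16 and 0.07 over all genes tested. The members called lay along much of the pathway and included genes from *Mvd* and *Pmvk* of the mevalonate part through *Idi1* and *Fdps* of the isoprenoid part to *Fdft1*, *Sqle*, *Cyp51*, *Msmo1*, *Nsdhl* and *Tm7sf2* of the sterol part, together with *Insig1*, the membrane protein that holds back SREBP2.

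*Fdft1*, squalene synthase, led the group. Its lowest, median and highest levels per cell were 0.00, 4.07 and 7.23 at d1 and 0.00, 5.58 and 8.41 at d2, its mean went from 3.65 ± 2.14 (SD, n = 40 cells) to 5.38 ± 1.69 (SD, n = 83 cells), and the difference was 1.73. The cells of the days overlapped, but 67 of 83 d2 cells lay above the d1 median. *Fdps*, which makes farnesyl diphosphate, had levels of 2.18, 6.18 and 7.97 at d1 and 3.08, 7.42 and 9.44 at d2, a difference of 1.34 and 73 of 83 cells above the d1 median. *Cyp51*, the lanosterol demethylase, differed by 1.49, from a median of 4.56 to one of 5.75. The X-linked *Nsdhl*, with *Insig1* and *Msmo1*, differed by 1.37, 1.35 and 1.33, and *Nsdhl* by 1.08 in the cells numbered 1 to 40, where the share of cells with *Xist* was near that of d1. *Idi1* differed by 1.26 in all d2 cells, by 0.79 in the cells numbered 1 to 40 and by 1.66 in the later ones. *Tm7sf2*, a sterol reductase, differed by 1.22, and by 0.58 after thinning, so it did not keep the limit at equal depth.

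Levels on the day before and the day after are set beside these as a description. The mean level over the 22 members was 4.47 in 72 cells of d0, 3.20 at d1, 4.17 at d2 and 4.54 in 38 cells of d3, and each of these days is also 1 sample. *Fdps* stood at 8.24 at d0, 5.97 at d1, 7.31 at d2 and 7.47 at d3, and *Cyp51* at 6.70, 4.11, 5.60 and 6.25. For both genes d1 was the lowest of the 4 days. Among enzymes that make and desaturate fatty acids, 3 of 12 tested were higher and none lower, with a median of 0.34. *Scd2*, a stearoyl-CoA desaturase, differed by 1.61, with 74 of 83 d2 cells above the d1 median. *Fads1* and *Fads2*, which desaturate longer chains, differed by 1.21 and 1.05. *Scd2* and *Fads1* passed the limit in both stretches, but *Fads2* only in numbers 41 to 88, and after thinning 2 of the 12 were higher.

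Promoters of the 3 cholesterol genes with the largest differences among those with a sequence at hand are shown because a short motif was common to the group. They are the 250 bases before the RefSeq start on GRCm38.p6, read on the strand of the gene from 5′ to 3′, and capitals mark CCAAT or its complement ATTGG. *Cyp51* lies on the minus strand (chr5:4104698-4104947), *Nsdhl* on the plus strand (chrX:72918271-72918520) and *Insig1* on the plus strand (chr5:28071162-28071411).
Cyp51: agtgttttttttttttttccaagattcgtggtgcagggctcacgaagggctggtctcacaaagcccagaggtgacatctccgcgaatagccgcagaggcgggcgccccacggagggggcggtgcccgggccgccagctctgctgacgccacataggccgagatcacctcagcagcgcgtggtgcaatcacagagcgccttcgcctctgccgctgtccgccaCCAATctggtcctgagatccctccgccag
Nsdhl: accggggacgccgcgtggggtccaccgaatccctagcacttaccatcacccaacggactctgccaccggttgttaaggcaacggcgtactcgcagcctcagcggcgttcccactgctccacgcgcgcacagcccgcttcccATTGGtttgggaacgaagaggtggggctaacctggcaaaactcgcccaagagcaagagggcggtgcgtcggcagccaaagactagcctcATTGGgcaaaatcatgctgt
Insig1: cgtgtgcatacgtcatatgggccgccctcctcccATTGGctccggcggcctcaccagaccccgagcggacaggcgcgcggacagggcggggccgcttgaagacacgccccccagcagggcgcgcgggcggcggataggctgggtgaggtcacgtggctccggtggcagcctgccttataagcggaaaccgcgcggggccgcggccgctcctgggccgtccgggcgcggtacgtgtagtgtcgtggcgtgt

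CCAAT, on either strand, was found before at least 1 start of all 15 cholesterol genes with a sequence (15 of the 22 tested), of 3171 of 7727 tested genes with one and of 37.5% of all 27025 genes with one. The sterol element in the form TCACNCCAC was found in none of the 15 and in 1.20% of the tested genes. Of 13 Wnt targets and 11 immediate early genes with a sequence, 3 and 4 held CCAAT. These are matches of letters within 250 bases and say nothing of binding.

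Wnt targets were also higher, in larger number in the cells numbered 1 to 40. Of 19 tested, 9 were higher at d2 and none was lower, with a median of 0.93. In the cells numbered 1 to 40 there were 13 higher with a median of 1.22, and in numbers 41 to 88 there were 5 higher with a median of 0.41. Only *Nkd1*, *Nkd2*, *Tnfrsf19* and *Sfrp2* of the tested members were higher in both. *Nkd1*, an inhibitor of Wnt signalling that Wnt itself induces, had levels of 1.92, 5.96 and 9.57 (lowest, median and highest cell) at d1 and 3.91, 8.07 and 10.03 at d2. Its difference was 1.91, and 76 of 83 d2 cells lay above the d1 median, although the days overlapped. *Tnfrsf19*, a receptor of the TNF family also called Troy, went from 2.80 ± 2.55 (SD, n = 40 cells) to 5.13 ± 2.38 (SD, n = 83 cells), a difference of 2.33. *Notum*, the secreted enzyme that removes the lipid of Wnt ligands, showed the widest gap between the stretches among the members called. Its median was 2.25 at d1, 7.15 in the d2 cells numbered 1 to 40 and 3.10 in numbers 41 to 88, with differences of 3.99 and 0.39. *Sp5*, a transcription factor that is a direct target of beta-catenin, differed by 2.47 and 0.24, *Wif1*, a secreted Wnt inhibitor, by 2.70 and 0.25, and *Kremen1*, a receptor for Dkk proteins, by 2.17 and 0.52. *Sfrp2*, another secreted Wnt binder, had the other order, with 1.25 and 2.67. At d3 the levels of *Notum*, *Sp5* and *Wif1* were 7.60, 4.18 and 5.15, nearer to the first stretch (6.92, 3.78 and 4.46) than to the second (3.32, 1.54 and 2.01).

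The promoters of *Tnfrsf19* (chr14:61037988-61038237, minus strand) and *Sp5* (chr2:70474673-70474922, plus strand) are shown because they were the 2 of 13 Wnt targets with the TCF motif CTTTGAT or its complement ATCAAAG, in capitals, against 2.67% of tested genes with a sequence.
Tnfrsf19: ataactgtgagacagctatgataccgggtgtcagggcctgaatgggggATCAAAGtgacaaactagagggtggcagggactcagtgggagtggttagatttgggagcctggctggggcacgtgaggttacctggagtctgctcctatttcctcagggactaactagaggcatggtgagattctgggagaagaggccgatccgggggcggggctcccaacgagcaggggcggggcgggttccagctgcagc
Sp5: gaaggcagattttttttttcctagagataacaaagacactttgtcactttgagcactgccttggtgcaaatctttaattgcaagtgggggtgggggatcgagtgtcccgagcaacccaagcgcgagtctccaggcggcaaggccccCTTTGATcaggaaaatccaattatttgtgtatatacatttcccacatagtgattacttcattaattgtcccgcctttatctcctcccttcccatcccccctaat

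BMP genes were higher as well, and here ligands, antagonists and targets were all among the members called. Of 17 tested, 7 were higher at d2 and none was lower, with a median of 0.52, and the median was 0.63 and 0.57 in the first and second stretch. In the second stretch alone, 1 member was lower. The ligand *Bmp2* had levels of 0.00, 5.12 and 8.30 at d1 and 0.00, 6.39 and 8.69 at d2 (lowest, median and highest cell), and its mean went from 4.62 ± 2.45 (SD, n = 40 cells) to 5.93 ± 2.03 (SD, n = 83 cells). The difference was 1.31, it was 1.38 and 1.26 in the stretches, and 57 of 83 d2 cells lay above the d1 median. At d0 and d3 the level of *Bmp2* was 1.71 and 4.22. The ligand *Bmp7* differed by 1.74 and was without a UMI in some cells of both days, being detected in 62.5% of d1 and 86.7% of d2 cells. Of the secreted antagonists, *Nbl1* (DAN) differed by 2.36 and *Grem1* (gremlin) by 1.69. *Bambi*, a receptor without a kinase that BMP induces, differed by 1.08. The homeobox targets *Msx1* and *Msx2* differed by 1.05 and 1.43, the latter by 2.46 in the cells numbered 1 to 40 and 0.57 in the later ones. After thinning, *Bambi* and *Msx1* stood at 0.73 and 0.49, below the limit.

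**Figure D2:**
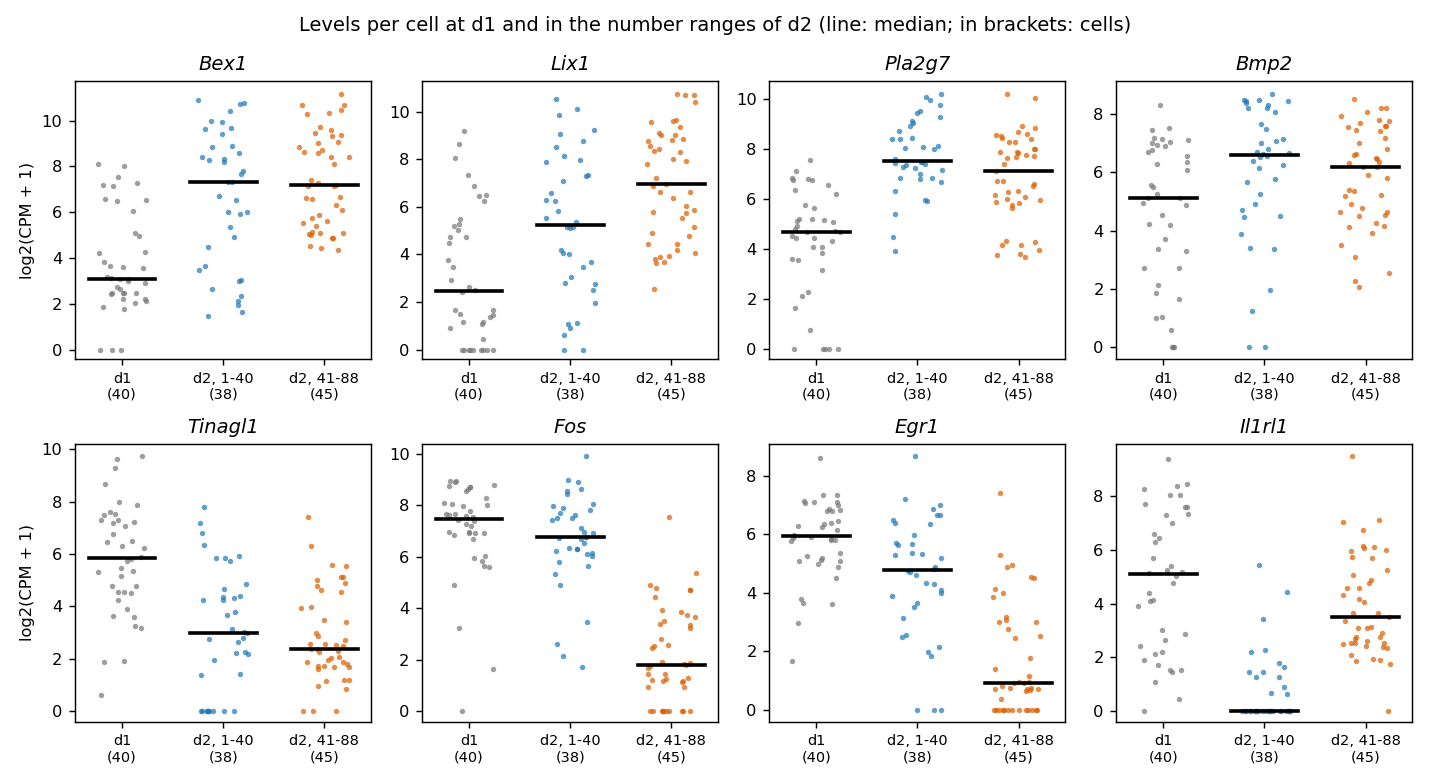
Each point is 1 cell, with its level in log2(CPM + 1) on the y axis, at d1 (40 cells), in d2 cells numbered 1 to 40 (38) and in numbers 41 to 88 (45); the line is the median. *Bex1*, *Lix1*, *Pla2g7* and *Bmp2* are higher in both stretches of d2 and *Tinagl1* lower, whereas *Fos* and *Egr1* are lowest in the later numbers and *Il1rl1* in the earlier ones.

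Among single genes with a level of at least 3 and a UMI in at least 50% of the cells, the 12 with the largest upward differences were higher by at least 1 in both stretches and in every other setting tried. *Bex1*, an X-linked adaptor protein first known from brain (NCBIM37 chromosome X, 132748511 to 132750052), led them. Its lowest, median and highest levels were 0.00, 3.11 and 8.09 at d1 and 1.46, 7.26 and 11.17 at d2, and 75 of 83 d2 cells lay above the d1 median. The difference was 3.25 over all d2 cells and 2.83 in those numbered 1 to 40, with mean CPM of 43.6 and 402. *Tmem132c*, a membrane protein gene (chromosome 5, 127722178 to 128046163), and *Tmem132cos*, named as its opposite-strand transcript, differed by 2.53 and 3.10. Whether counting used the strand was not given in the sources used here, so reads of this pair cannot be told apart. *Lix1* (chromosome 17, 17539636 to 17596351), known from the developing limb, went from 3.11 ± 2.81 (SD, n = 40 cells) to 6.19 ± 2.79 (SD, n = 83 cells), a difference of 3.08. It was spread widely at d2, from 0.00 to 10.75, and overlapped d1.

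*Pla2g7*, a secreted hydrolase of platelet-activating factor, had no d2 cell at 0. Its levels were 0.00, 4.68 and 7.54 at d1 and 3.69, 7.47 and 10.20 at d2, a difference of 3.05. *Hes6*, a helix-loop-helix factor that opposes Hes1, had levels of 0.00, 4.32 and 8.36 at d1 and 3.45, 6.72 and 10.48 at d2, with 81 of 83 cells above the d1 median. *Enpp2* (autotaxin, which makes lysophosphatidic acid) differed by 2.91, *Mllt3* (AF9, a chromatin reader that binds DOT1L) by 2.85, *Agtr2* (the angiotensin receptor of type 2) by 2.69, *Sema5a* (a semaphorin) by 2.48 and *Nrgn* (neurogranin, a calmodulin binder of neurons) by 2.59. *Pmaip1*, which encodes the pro-apoptotic protein Noxa, had a median of 0.00 at d1 and 4.06 at d2. Its difference was 2.87, and it was 1.70 in the first stretch and 3.86 in the second.

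Of the 12 genes with the largest downward differences, 10 were lower by at least 1 in both stretches. *U90926*, a gene with little known function (chromosome 5, 92638922 to 92644434), had levels of 0.00, 4.49 and 10.90 at d1 and 0.00, 1.64 and 9.17 at d2, and 76 of 83 d2 cells lay below the d1 median. Its difference was -2.97. *Tinagl1*, a protein of basement membranes, went from 5.80 ± 2.12 (SD, n = 40 cells) to 2.96 ± 2.03 (SD, n = 83 cells), a difference of -2.84, and its level was 5.41 at d0 and 0.98 at d3. The days overlapped for each of these genes. *Plaur*, the receptor of urokinase, differed by -2.03, with 78 of 83 d2 cells below the d1 median. *Msln* (mesothelin, a surface protein of mesothelium) differed by -2.19 and *Ezr* (ezrin, which ties the membrane to actin) by -2.09. *Gsta1*, a glutathione transferase, differed by -2.27, and its median cell had no UMI at d2. *Il1rl1*, the receptor of interleukin 33, was the reverse of *Fos* in the stretches. Its median was 5.09 at d1, 0.00 in the cells numbered 1 to 40 and 3.49 in numbers 41 to 88, with differences of -4.05 and -0.86. At d3 its level was 0.30.

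Immediate early genes, which growth factors and stress switch on within minutes, held 7 of 16 members lower at d2 and 1 higher, with a median of -0.95. The median was -0.50 in the first stretch and -0.93 in the second. *Fosb*, *Jun*, *Egr1*, *Klf2* and *Klf4* were lower by at least 1 in both. *Fos*, a subunit of the factor AP-1 (chromosome 12, 86814840 to 86818223), had levels of 0.00, 7.48 and 8.94 at d1, 1.72, 6.75 and 9.89 in d2 cells numbered 1 to 40 and 0.00, 1.81 and 7.55 in numbers 41 to 88. The first stretch was near d1, with a difference of -0.40, and the second was far below it, with -4.85. *Egr1*, a zinc finger factor downstream of ERK, differed by -1.27 and -4.07 in the same order, and *Ier3* by -0.26 and -1.71. *Jun*, the partner of Fos, differed by -1.67 and -1.06 in the stretches, with 69 of 83 d2 cells below the d1 median. *Klf10*, which TGF-beta induces, was the member that was higher, by 1.51. At d3 *Fos* and *Egr1* stood at 7.22 and 4.36.

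The promoter of *Fos* (chr12:85473640-85473889, plus strand) is shown with the core of the CREB motif, TGACG or its complement CGTCA, in capitals. Of 11 immediate early genes with a sequence, 6 held this core and none the full motif TGACGTCA, which contains the core, against 32.6% and 3.36% of the tested genes with a sequence.
Fos: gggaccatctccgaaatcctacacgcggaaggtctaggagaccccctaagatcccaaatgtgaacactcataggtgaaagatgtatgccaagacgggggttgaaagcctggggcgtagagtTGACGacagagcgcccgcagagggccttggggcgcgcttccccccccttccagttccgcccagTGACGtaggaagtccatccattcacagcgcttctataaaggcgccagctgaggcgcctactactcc

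Genes near ERK parted in direction. Of 12 genes that ERK induces or that feed back on it, 3 were higher and 1 lower, with a median of 0.31. *Spry4* and *Spry1*, inhibitors of receptor tyrosine kinase signalling, differed by 1.81 and 1.33, and the factor *Etv4* by 1.10, each past the limit in both stretches. The member that was lower was *Il1rl1*, the receptor given above. Of 16 genes of the EGF, FGF, PDGF and Kit systems, 1 was higher and 5 lower, with a median of -0.25. The EGF receptor ligands *Ereg*, *Hbegf* and *Areg* differed by -1.65, -1.59 and -1.29, *Fgf7* by -2.02 and the receptor *Met* by -1.32. *Ereg* and *Fgf7* passed the limit in both stretches. *Pdgfrb*, a receptor of pericytes and fibroblasts, was higher by 1.27, and by 0.53 after thinning.

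Inhibitors of the cell cycle and p53 targets had 7 of 21 members higher and none lower, with a median of 0.65. In numbers 41 to 88 there were 11 higher and the median was 1.03, where 10.2% of all genes tested were higher, and in the cells numbered 1 to 40 there were 5 and 0.16, where 6.58% were. *Cdkn1c*, *Cdkn2b*, *Pmaip1* and *Zmat3* were higher in both. *Cdkn1c*, the CDK inhibitor p57, had levels of 0.00, 3.87 and 10.54 at d1 and 0.00, 5.67 and 12.27 at d2, a difference of 2.43. *Cdkn2b*, the inhibitor p15 of CDK4 and CDK6, went from 4.29 ± 2.63 (SD, n = 40 cells) to 6.27 ± 2.16 (SD, n = 83 cells) and differed by 1.96 and 2.00 in the stretches. *Zmat3*, a p53 target, differed by 1.15 and *Gdf15*, a stress hormone, by 0.00 in the first stretch and 2.44 in the second. Of 40 genes of S phase none was higher and 2 were lower, with a median of -0.37, and 32 of them had a difference below 0. *Clspn* (claspin, a checkpoint adaptor) differed by -1.16, *Cdca7* by -1.04 and *Gmnn* (geminin) by -0.94. Of 49 genes of G2 and M phase 1 was higher and 2 lower, with a median of -0.37, and after thinning 1 was higher and 8 were lower, with a median of -0.48. *Mki67*, a marker of cycling cells, had levels of 0.76, 6.17 and 8.79 at d1 and 0.00, 5.33 and 8.03 at d2, a difference of -1.21. *Ndc80*, of the kinetochore, differed by -1.28. *Psrc1*, which binds spindle microtubules and is also a p53 target, was the higher one, by 1.00, which came from the later numbers (-0.14 and 1.97).

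**Figure D3:**
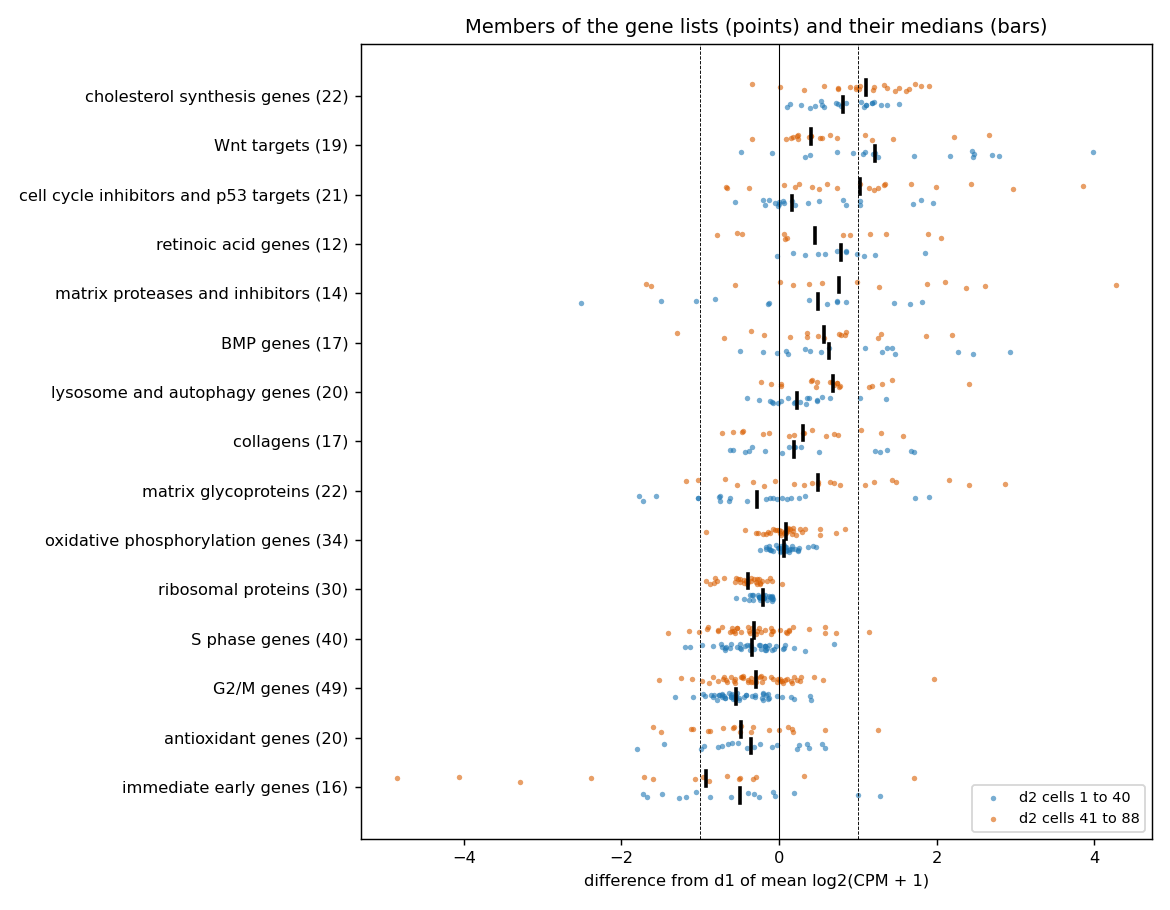
Each point is 1 gene, with its difference from d1 in mean log2(CPM + 1) on the x axis, by gene list (number of genes tested in brackets); blue points are d2 cells numbered 1 to 40, orange points those numbered 41 to 88 and black bars the medians. Cholesterol synthesis genes sit to the right in both stretches, Wnt targets mainly in the first and cell cycle inhibitors mainly in the second, while ribosomal proteins form a tight cloud left of 0.

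Matrix genes parted by family. Of 17 collagens tested 4 were higher and none lower, with a median of 0.22. *Col18a1*, *Col6a2* and *Col6a3*, the collagens XVIII and VI found around basement membranes, differed by 1.64, 1.47 and 1.15 and passed the limit in both stretches, and the fibrillar *Col3a1* differed by 1.04. Of 22 matrix glycoproteins 4 were higher and 1 lower, with a median of -0.01, and the stretches lay on opposite sides. The cells numbered 1 to 40 had 2 higher and 5 lower with a median of -0.28, and numbers 41 to 88 had 7 higher and 2 lower with a median of 0.49. *Mfap2*, a protein of microfibrils, had levels of 0.00, 6.26 and 8.91 at d1 and 3.43, 7.84 and 9.98 at d2, a difference of 1.96, and *Fbln1* (fibulin 1) differed by 1.68. The small proteoglycans *Dcn* (decorin) and *Lum* (lumican) parted by stretch, with 0.25 and -0.03 in the cells numbered 1 to 40 and 2.87 and 2.42 in the later ones. *Has1*, a hyaluronan synthase, differed by -1.43. Of 14 proteases and inhibitors of the matrix 6 were higher and 2 lower, with a median of 0.56, against 3 and 3 in the first stretch. *Mmp2* and *Mmp11* differed by 2.08 and 2.12 and were higher in both stretches, whereas *Mmp10* differed by 0.61 in the first and 4.28 in the second. *Timp1*, an inhibitor of these proteases, had levels of 7.49, 9.48 and 11.50 at d1 and 3.08, 7.99 and 12.06 at d2. Its difference was -1.60, and 77 of 83 d2 cells lay below the d1 median.

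Targets of SRF and YAP, the factors that read the tension of the actin skeleton, gave 3 of 17 higher and 2 lower, with a median of 0.07. Over all genes tested 6.33% were higher and 1.91% lower. The smooth muscle genes *Myl9*, *Cnn1* and *Actg2* differed by 1.55, 1.41 and 1.08, and *Srf* itself by -1.11. *Ankrd1*, a YAP target, differed by -1.16, but by 1.31 in the other direction when log2 was taken of the mean CPM, so its direction depends on the scale. After thinning none of the 17 was lower. Targets of TGF-beta, whose receptor the cocktail blocks at both days, had 2 of 16 higher and 1 lower, with a median of 0.29. *Il11*, a cytokine of the interleukin 6 family, had a median of 3.55 at d1 and 0.00 at d2 and differed by -2.41. *Cdkn2b*, which is also counted among the cell cycle inhibitors, was 1 of the 2 that were higher and differed by 1.98. *Tgfb2*, a TGF-beta ligand, differed by 1.20, with 1.83 and 0.67 in the stretches. Of 6 activin and follistatin genes none was called over all d2 cells, with a median of 0.02, but 1 was lower in the first stretch and 1 higher in the second. These were *Fst* (follistatin), with -1.66 and -0.05 in the stretches, and *Inhbb* (an activin chain), with 0.48 and 1.08.

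Genes of the retinoic acid pathway had 3 of 12 higher and none lower, with a median of 0.60. *Rarb*, a retinoic acid receptor that is its own target, had levels of 0.00, 3.06 and 7.59 at d1 and 0.00, 5.16 and 7.92 at d2, a difference of 1.58. *Stra6*, the retinol carrier of the membrane, differed by 1.59, and both genes passed the limit in both stretches. *Crabp1*, which binds retinoic acid in the cytosol, was at 9.57 at d1 and 11.07 at d2, with a difference of 0.85 in the first stretch and 2.05 in the second. Targets of cAMP and CREB had 1 of 12 higher and 2 lower, with a median of -0.16. *Pde4d*, which breaks down cAMP, differed by 1.02, the phosphatase gene *Dusp1* by -1.08 and the neuropeptide precursor *Vgf* by -1.46. Of these only *Vgf* passed the limit in both stretches. *Pde4d* differed by 1.30 in the first and 0.79 in the second, and *Dusp1* passed the limit only in the second.

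None of 30 ribosomal proteins was called, yet all 30 had a difference below 0, with a median of -0.32. *Rpl22* had levels of 8.35, 9.59 and 10.66 at d1 and 5.45, 8.93 and 10.55 at d2, a difference of -0.63 that was -0.54 in the first stretch and -0.70 in the second. None of 19 genes of ribosome biogenesis was called, with a median of -0.34, and *Bop1* differed by -0.66. None of 34 genes of oxidative phosphorylation was called either, with a median of 0.08. Their extremes were *Sdha* at 0.60 and *Atp5e* at -0.50. Of 20 antioxidant genes none was higher and 3 were lower, with a median of -0.41, and 5 were lower after thinning. *Gclm* and *Gclc*, the subunits of the enzyme that starts glutathione synthesis, differed by -1.48 and -1.11, and the glutathione transferase *Gsta4* by -1.21. For *Gclm*, 74 of 83 d2 cells lay below the d1 median. Of 20 lysosome and autophagy genes 3 were higher and none lower, with a median of 0.45 that was 0.18 after thinning. *Ctsb* (cathepsin B) had levels of 7.65, 9.18 and 10.74 at d1 and 8.18, 10.36 and 12.50 at d2 and differed by 1.09. *Atp6v0d1*, of the proton pump, differed by 1.26 and *Gpnmb* by 1.47. *Ctsb* and *Atp6v0d1* passed the limit in both stretches, but *Gpnmb* only in numbers 41 to 88.

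In glycolysis and hypoxia genes 1 of 23 was higher and 1 lower, with a median of 0.06, against 6.33% and 1.91% of all genes tested. *Bnip3*, a mitophagy receptor, differed by 2.13 and the glucose transporter *Slc2a1* by -1.19. Of 21 genes of the amino acid response 1 was higher, *Ddit3* (CHOP, a stress factor), by 1.35, with a median of 0.09. *Ddit3* was under the limit in the cells numbered 1 to 40 and differed by 1.84 in numbers 41 to 88. None of 18 chaperones of the endoplasmic reticulum and none of 13 heat shock proteins was called over all d2 cells, with medians of 0.11 and -0.06. In numbers 41 to 88, where 10.2% of all genes tested were higher, 2 heat shock proteins were higher. Of 14 chemokine and cytokine genes none was higher and 3 were lower over all d2 cells, with a median of -0.22, but the stretches parted. In the cells numbered 1 to 40 none was higher and 4 were lower, and in numbers 41 to 88 there were 5 higher and 4 lower. *Cxcl1*, which attracts neutrophils, differed by -1.83, *Ptgs2* (cyclooxygenase 2) by -1.69 and *Ccl2*, which attracts monocytes, by -2.25 in the first stretch and -0.02 in the second. Of 10 interferon and MHC genes 2 were higher, with a median of 0.43, and there were 1 higher in the first stretch and 4 higher and 1 lower in the second. *H2-K1*, an MHC class I chain, had a median of 0.87 at d1, 0.25 in the cells numbered 1 to 40 and 5.42 in numbers 41 to 88. Its difference was 0.08 in the first stretch and 3.51 in the second. *Ifit2*, an interferon target, differed by 1.44. Of 11 IGF genes none was higher and 2 were lower, with a median of -0.12, while 2 were higher and 1 lower in the first stretch and 3 lower in the second. *Igfbp5* and *Igfbp4*, binders of IGF, differed by -2.05 and -1.15.

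Of 14 mesenchymal transcription factors 2 were higher and 1 lower, with a median of 0.40, against 6.33% and 1.91% of all genes tested. *Snai2* (Slug) had levels of 0.00, 3.40 and 7.78 at d1 and 0.00, 5.83 and 8.21 at d2, a difference of 2.12. *Pitx1* differed by 1.03, but by -0.37 when log2 was taken of the mean CPM. *Ebf1* differed by -1.38, with -2.16 in the first stretch and a difference under the limit in the second. Of these 3 genes only *Snai2* passed the limit in both stretches. The fibroblast factors *Twist2*, *Prrx1*, *Twist1* and *Osr1* had differences of 0.17, -0.36, 0.63 and 0.19, all under the limit. *Twist2* stood at 9.26 at d1 and 9.43 at d2, and *Prrx1* at 8.15 and 7.79. Of the 10 XEN transcription factors in the table only *Gata6* reached the level tested, and it differed by -0.55. *Sox17*, an endoderm factor, had a UMI in 0 of 40 d1 cells, which allows a share of cells with a UMI of up to 7.5%, and in 10 of 83 d2 cells, a share of 12.0% (exact 95% interval 5.93% to 21.0%, counting error only). Each of these 10 cells held 1 UMI, and most of them were numbered 1 to 40, the stretch with the lower median depth. The median depth was 749200 UMIs at d1 and 1055257 at d2, and these shares say nothing of how many cells expressed the gene. *Sall4*, a zinc finger factor, was at 0 of 40 and in 7 of 83 cells. After thinning, *Sox17* was found in 1 of 82 d2 cells and *Sall4* in 0. *Gata4* was found in 1 cell of each day, and the d1 cell held it at 6.56 in log2(CPM + 1). *Foxa2*, a forkhead factor of endoderm, was found in none of 123 cells. Of 6 skeletal muscle genes tested 1 was higher, *Chrna1* (a chain of the acetylcholine receptor of muscle), by 1.82, with a median of 0.43. The median was -0.08 with 1 higher in the first stretch and 0.90 with 3 higher in the second. The cell with the high muscle markers is also in the second stretch, and its part in the medians of the stretches was not tested. Over all d2 cells, *Chrna1* stayed past the limit without this cell and the d2 cell highest in epithelial markers. Of 8 bone, cartilage and fat genes 1 was lower, with a median of 0.08, and the median was -0.70 in the first stretch and 0.06 in the second, where 2 were higher. The lower one was *Spp1* (osteopontin), with -2.96 in the first stretch and -0.37 in the second.

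**Figure D4:**
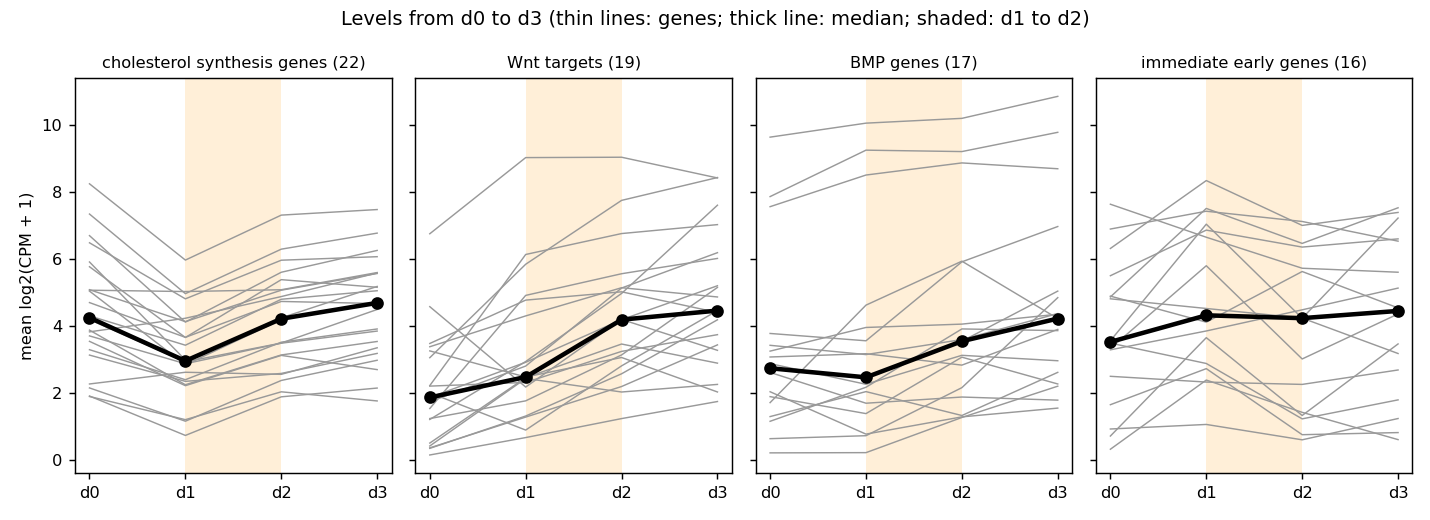
Each thin line is 1 gene and the thick line the median of the list, with the mean level in log2(CPM + 1) on the y axis at d0 (72 cells), d1 (40), d2 (83) and d3 (38); the step from d1 to d2 is shaded. The median of the cholesterol synthesis genes is lowest at d1, and the mean over Wnt targets goes from 3.23 at d1 to 4.29 at d2 and 4.80 at d3.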

How the data were processed

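Single cells were sequenced with molecular identifiers, and the authors deposited counts of UMIs per gene for 808 cells in 1 table. Per the study's methods the reads were split by cell barcode, trimmed, aligned to the mouse mm9 transcriptome and de-duplicated by UMI; the aligner was not given in the sources used here. Of 23201 gene rows, 4 repeated names were dropped, and 92 ERCC rows stayed out of the totals. CPM was computed per cell, and the mean of log2(CPM + 1) over cells was compared between d2 and d1 for cells with at least 4000 detected genes and for genes with a mean of at least 1 at either day. The limit for a call was a difference of 1. As no cell could be tied to a batch, each day was 1 sample and no p-value was computed. Intervals of shares are exact Clopper-Pearson intervals (95%) and, with the limit that a count of 0 allows (3 counts), cover counting error only.

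Named genes are the 12 largest differences each way among genes with a mean of at least 3 and a UMI in at least 50% of the cells of the higher day, the 3 largest members of each of 34 gene lists with other members whose role is described, and 9 genes that the study follows. The comparison, the lists and the named genes were chosen with earlier results of these data known. The break after d2 cell number 40 was chosen after seeing the data. The scripts were tested on simulated data. Alternatives were other cell filters, pseudocounts, limits and scalings (edgeR TMM and DESeq2 size factors, used as factors only), thinning to 50000 UMIs per cell and subsets of d2. Gene positions are from the NCBIM37 annotation, and promoter sequences from RefSeq on GRCm38.p6. Python 3.11.15, numpy 2.4.6, pandas 2.3.3, scipy 1.17.1, R 4.3.3, edgeR 4.0.16 and DESeq2 1.42.0 were used. Some named-gene results are not reported here.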

Additional observations from a re-analysis of the deposited data

How the results depend on the processing

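Of 125 named genes 88 passed the limit of 1, and 40 of them passed it under every alternative. The number of genes higher at d2 was 617 and that of genes lower at d2 was 186. With a pseudocount of 10 they were 86 and 34, with one of 0.1 they were 1786 and 457, with a limit of 0.5 they were 2356 and 969, and with a limit of 2 they were 50 and 15. By medians over cells they were 1283 and 477. With no minimum of genes per cell 305 genes were lower, with a minimum mean of 3 there were 397 higher, and after thinning to 50000 UMIs 336 were lower. For d2 cells numbered 49 to 96 the counts were 1046 and 291. The following subsets were chosen after seeing the data. The cells numbered 1 to 40 gave 289 lower, or 465 after thinning, and those numbered 41 to 88 gave 991 higher, and 476 lower after thinning. The other scalings and cell filters left both counts within 1.5 times. A sign changed for 7 genes. From log2 of the mean CPM, *Pitx1* stood at -0.37 and *Ankrd1* at 1.31. In d2 cells numbered 1 to 40 *Psrc1* stood at -0.14 and, after thinning, *Dcn* at -0.15 and *H2-K1* at -0.38. In those numbered 41 to 88 after thinning, *Tgfb2* stood at -0.040 and *Ccl2* at 0.18. The cause was not tested. No paired analysis was possible because the cell names carry no batch, and with 1 sample a day day and batch cannot be told apart.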

Other observations

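The d2 cell with the highest summed muscle markers, which was among those numbered 41 to 88, held 8225 CPM of *Acta1* (skeletal actin), 5136 CPM of *Actc1* (cardiac actin), 4305 CPM of *Mylpf* (a myosin light chain) and 1355 CPM of the muscle factor *Myog* (myogenin), with *Myod1* at 197 CPM and *Myf5* and *Ckm* at 0.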
